A study of Mus musculus with 8 samples.

Results

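The 10 genes described here encode transcription factors of the ETS family: Fli1, Erg, Ets1, Ets2, Elk3, Etv6, Elf1, Etv1, Etv5 and Gabpa. They were chosen by name from the family, with earlier results of these data known. They were taken from 34614 annotated protein-coding and long non-coding RNA genes. Chromatin accessibility was read at each gene and 1 kb on either side (the locus) by NOMe-seq. In this assay nuclei are exposed to the GpC methyltransferase M.CviPI, which methylates cytosines in GpC wherever no nucleosome or other protein covers the DNA, and bisulfite sequencing then shows which cytosines carried the mark. A level is the percentage of reads over such cytosines that were methylated.

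The cells were mouse embryonic fibroblasts, and 8 libraries formed 4 groups of 2: D1_Positive (day 1 of Etv2-induced reprogramming, with the enzyme), D0_Positive (control cells at day 0, with the enzyme), D1_Negative (day 1, no enzyme) and D0_Negative (day 0, no enzyme). The day 0 cells served as the control for day 1, and the libraries without the enzyme gave the background of the readout. The labels do not describe how Etv2 was delivered, and they do not say whether a pair of libraries came from different cultures or from 1 culture, so p-values measure the spread between libraries, which may be technical. No RNA was read, so the fibroblast label could not be checked by marker expression.

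ETS factors share the ETS domain, a winged helix-turn-helix fold that binds DNA at a GGAA core, and many members can bind the same sites. Etv2 is itself an ETS factor: it is needed in the embryo for endothelial and blood progenitors, is present for a short time, and is followed by Fli1 and Erg, which keep endothelial genes active after it is gone. Other members act as repressors, such as Etv6 and Elk3, or respond to growth factor signalling, such as Etv1 and Etv5, while Gabpa acts in most cells on genes of mitochondria and of protein synthesis.

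On mm10 (GRCm38) the 10 genes lie on 6 chromosomes. Fli1 (chr9:32422204-32543432) and Ets1 (chr9:32636241-32757820) are neighbours 92.8 kb apart, and Erg (chr16:95359169-95586600) and Ets2 (chr16:95702407-95721049) are neighbours 116 kb apart. Etv5 (chr16:22381313-22439570) and Gabpa (chr16:84834891-84863783) share that chromosome. Elk3 lies at chr10:93247415-93311159, Etv6 at chr6:134035700-134270158, Elf1 at chr14:79481174-79582491 and Etv1 at chr12:38780082-38870483. The start of Gabpa overlaps the Atp5j locus, the start of Elf1 overlaps Wbp4 and the 3' end of Elk3 overlaps Cdk17, so reads there belong to both genes.

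Promoter windows from RefSeq, running from 250 bases before a transcript start to 50 bases after it, were at hand for 8 of the genes (13 windows; Fli1 and Ets1 had none). These windows held 489 GpC cytosines outside GpCpG, of which 13 were covered by reads in any library, in 5 windows. Both libraries of D1_Positive and both of D0_Positive together covered 1 of them, in Elf1. The windows of Elf1 (chr14:79480944-79481243, plus strand), Etv6 (chr6:134035450-134035749, plus strand) and Gabpa (chr16:84834874-84835173, plus strand) are printed because Elf1 held that 1 cytosine, Etv6 had the most covered cytosines (5) and Gabpa was the only member with a CCGGAA match. Capitals mark the GC dinucleotides whose cytosine was covered.
Elf1: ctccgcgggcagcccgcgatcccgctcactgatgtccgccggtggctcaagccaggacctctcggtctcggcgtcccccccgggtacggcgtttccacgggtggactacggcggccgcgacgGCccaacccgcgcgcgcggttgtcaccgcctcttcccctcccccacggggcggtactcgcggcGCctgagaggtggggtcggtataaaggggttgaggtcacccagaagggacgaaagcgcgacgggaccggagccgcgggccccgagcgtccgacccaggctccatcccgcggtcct
Etv6: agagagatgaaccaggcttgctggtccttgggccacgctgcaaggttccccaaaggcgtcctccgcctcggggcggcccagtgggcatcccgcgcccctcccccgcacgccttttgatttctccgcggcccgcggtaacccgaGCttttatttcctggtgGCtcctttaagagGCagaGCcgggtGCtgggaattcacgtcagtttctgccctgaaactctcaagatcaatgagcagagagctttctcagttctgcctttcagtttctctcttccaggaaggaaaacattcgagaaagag
Gabpa: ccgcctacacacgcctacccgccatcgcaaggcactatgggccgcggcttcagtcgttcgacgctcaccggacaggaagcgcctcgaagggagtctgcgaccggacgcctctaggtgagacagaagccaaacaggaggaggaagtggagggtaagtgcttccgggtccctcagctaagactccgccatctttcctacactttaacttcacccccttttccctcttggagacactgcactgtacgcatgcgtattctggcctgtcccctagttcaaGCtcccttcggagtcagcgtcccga
At Elf1 the cytosine at position 79481130 was methylated in 3 of 4 reads of D1_Positive replicate 2, and the other covered cytosine, at 79481066, in 0 of 3 reads of D0_Negative replicate 2. At Etv6 all 5 covered cytosines were read in D1_Negative replicate 1 and each was methylated in 0 of 3 reads. At Gabpa the cytosine at 84835149 was methylated in 0 of 3 reads of the same library. Searched on both strands, GGAA occurred in 12 of the 13 windows and in 96.0% of 32851 RefSeq promoter windows of the same length (300 bp), and CCGGAA, which contains GGAA, in 1 of the 13 and in 14.9% of all. The Etv5 window at chr16:22439521-22439820 had 66 such cytosines, none of them covered, and no GGAA match. The promoters proper were therefore hardly read, and the values below come mostly from the bodies of the genes.

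Depth was low throughout. The D1_Positive libraries covered 792322 and 810078 sites (2856034 and 2917131 reads), the D0_Positive libraries 568331 and 559372 sites (2138058 and 2123335 reads), the D1_Negative libraries 1012656 and 991688 sites (3577740 and 3507942 reads) and the D0_Negative libraries 502588 and 439527 sites (1898356 and 1693307 reads). Every library's median was 3 reads per site, which is also the lowest value in the files, and no site of a member exceeded 100 reads. Over all 8 libraries Etv6 was the most densely read member, with 21.0 reads per kb (4967 reads), followed by Elk3 (14.3 per kb) and Ets2 (10.2 per kb), against 9.88 per kb over all protein-coding genes. Elf1, Fli1, Etv5, Ets1, Erg and Gabpa had between 9.21 and 4.40 reads per kb, and Etv1 had the fewest at 1.47 per kb (136 reads). Etv6 contributed from 41.1% to 57.2% of the members' reads in each library, so pooled values lean on it. At least 10 reads in each library, the minimum for a test, were reached by 6 members (Fli1, Erg, Ets1, Elk3, Etv6 and Elf1) and by 7993 loci in all. The other 4 (Ets2, Etv1, Etv5 and Gabpa) are given as values without a test.

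All 6 tested members were far more methylated with the enzyme than without it on both days. On day 1 the pooled level of the 10 loci was 28.6% ± 2.1 in D1_Positive and 1.00% ± 0.087 in D1_Negative (SD, n = 2 each). On day 0 it was 27.2% ± 1.1 in D0_Positive and 2.72% ± 0.46 in D0_Negative (SD, n = 2 each). By edgeR's quasi-likelihood test on methylated and unmethylated reads, with Benjamini-Hochberg adjustment over the 7993 loci, all 6 rose with the enzyme on day 1, where 99.6% of all loci did. Their log2 odds changes ran from 4.76 in Etv6 to 6.67 in Ets1 (adjusted p from 1.66e-32 to 4.92e-10, median of all loci 5.52). On day 0 all 6 rose as well, where 96.5% of all loci did. Their log2 odds changes ran from 2.65 in Elk3 to 5.42 in Elf1 (adjusted p from 9.5e-17 to 0.00134, median of all loci 4.40). The libraries with and without the enzyme did not overlap in any of the 6, as in 99.4% of loci on day 1 and 98% on day 0. Pooled over 21877 other protein-coding genes, the level was 30.5% ± 0.074 in D1_Positive, 29.5% ± 0.12 in D0_Positive, 1.03% ± 0.0034 in D1_Negative and 2.07% ± 0.040 in D0_Negative (SD, n = 2 each).

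**Figure D1:**
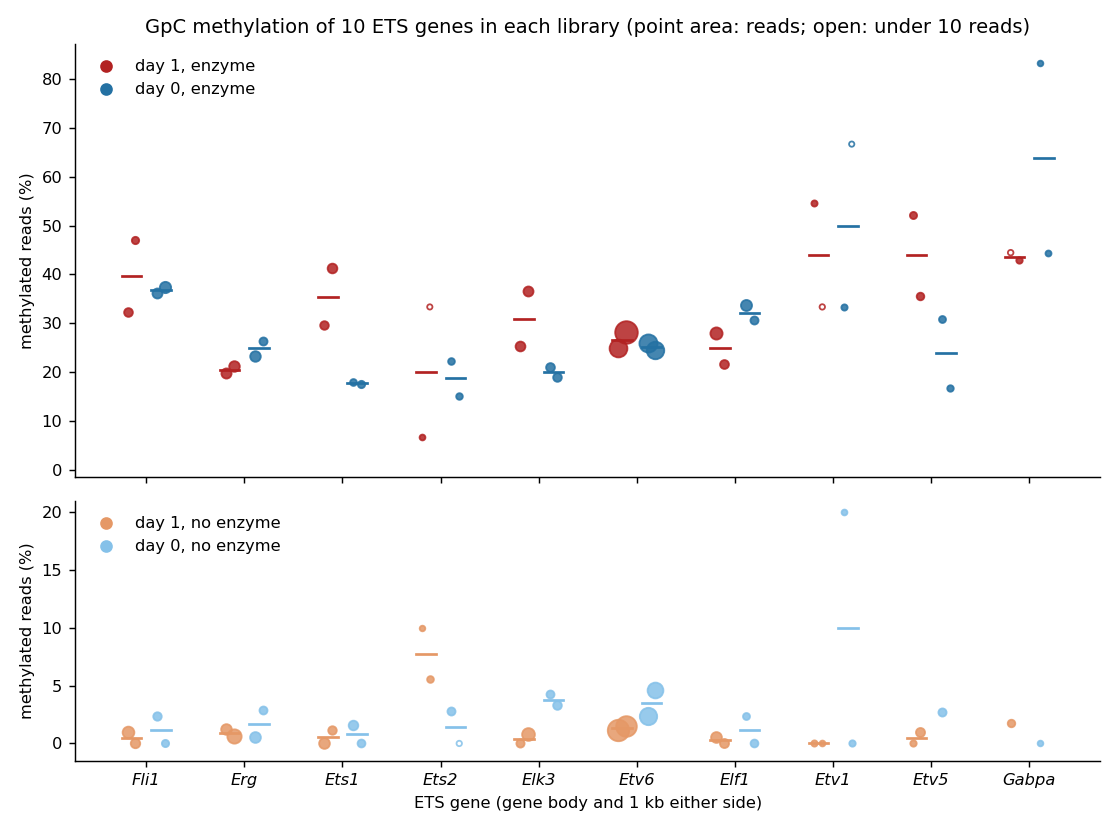
GpC methylation (% of reads) of each of the 10 ETS loci, 1 point per library, with D1_Positive left of D0_Positive in the upper panel, D1_Negative left of D0_Negative in the lower panel, and a line at the mean of each group; point area grows with reads and open points have under 10 reads. Libraries with the enzyme lie well above those without it at Fli1, Erg, Ets1, Elk3, Etv6 and Elf1, while Ets2, Etv1, Etv5 and Gabpa rest on few reads and scatter widely.

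The main question of the design was whether accessibility differed between day 1 of reprogramming and day 0. No tested member passed the threshold: 0 of 6 were called in either direction by edgeR's quasi-likelihood test (adjusted p 0.999 for each), 0 of 6 had an unadjusted p under 0.05, and limma called 0. Over all loci 0% were called in each direction, and 255 of 7993 had an unadjusted p under 0.05; a fit of these 4 libraries alone called 3 of 10713 loci higher, none of them a member. The median log2 odds change was 0.11 over the 6 members and 0.099 over all loci. With 2 libraries against 2, an exact permutation test of a single gene cannot go below p = 0.33.

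Fli1 and Erg, which in mouse and zebrafish sustain the endothelial programme after Etv2, had values near 0 and of opposite sign. Fli1 was methylated in 32.3% and 47.1% of reads (30 of 93 and 24 of 51) in the D1_Positive libraries and in 36.2% and 37.4% (50 of 138 and 70 of 187) in the D0_Positive libraries. Its D1_Positive libraries lay on either side of both D0_Positive libraries. The log2 odds change of Fli1 was 0.11 (SE 0.59). Fli1 was among the more methylated loci on both days: 89.1% of the 7993 loci were lower in D1_Positive and 86.0% were lower in D0_Positive. Erg was methylated in 19.7% and 21.2% of reads (28 of 142 and 34 of 160) in D1_Positive, against 23.3% and 26.4% (37 of 159 and 19 of 72) in D0_Positive. Both D1_Positive libraries of Erg were below both D0_Positive libraries, with a log2 odds change of -0.34 (SE 0.55). Erg stood low on both days, with 3.69% of loci below it in D1_Positive and 21.0% in D0_Positive.

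Ets1, which takes part in angiogenesis and lymphocyte development, had the largest positive day 1 value of the 6. It was methylated in 29.5% and 41.3% of reads (26 of 88 and 52 of 126) in D1_Positive and in 17.9% and 17.6% (7 of 39 and 9 of 51) in D0_Positive. The pooled levels were 36.4% in D1_Positive (95% interval 30.0% to 43.3%) and 17.8% in D0_Positive (10.5% to 27.3%); these exact Clopper-Pearson intervals cover counting error only and treat every read as independent. The libraries did not overlap. The log2 odds change of Ets1 was 1.35 (SE 0.72, unadjusted p = 0.0603, edgeR), and it did not pass after adjustment. In rank, 85.9% of loci lay below Ets1 in D1_Positive and 3.85% in D0_Positive. Elk3, a ternary complex factor that joins SRF on DNA and represses until it is phosphorylated, had the next largest value. It was methylated in 25.4% and 36.5% of reads (33 of 130 and 50 of 137) in D1_Positive and in 21.1% and 18.9% (20 of 95 and 17 of 90) in D0_Positive, again without overlap. Its log2 odds change was 0.83 (SE 0.60). It was 0.54 in the body of Elk3 alone and 0.44 without D1_Positive replicate 2.

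Ets1 and Elk3 were thus the 2 of 6 members with both D1_Positive libraries above both D0_Positive libraries, a pattern that 22.2% of all tested loci also had. Elf1 and Erg were the 2 of 6 with the opposite order, which 13.1% of loci had. Elf1, a regulator of blood and endothelial genes, was methylated in 28.0% and 21.6% of reads (63 of 225 and 21 of 97) in D1_Positive and in 33.7% and 30.6% (60 of 178 and 22 of 72) in D0_Positive. Its log2 odds change was -0.51 (SE 0.57). In the body of Elf1 alone the libraries overlapped (28.0% and 19.4% in D1_Positive, 33.7% and 16.7% in D0_Positive) and the change was -0.22, and without D1_Positive replicate 2 it was -0.30. With 6 members these counts are small, and nothing particular to the members is read from them.

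Etv6, a repressor that is needed in mouse for yolk sac vessels and for blood stem cells in bone marrow, was the best measured member, with a value close to 0. It was methylated in 25.0% and 28.2% of reads (134 of 537 and 252 of 893) in D1_Positive and in 26.0% and 24.5% (145 of 558 and 127 of 519) in D0_Positive. The groups overlapped, and the log2 odds change was 0.10 (SE 0.33). The pooled levels of Etv6 were 27.0% in D1_Positive (95% interval 24.7% to 29.4%) and 25.3% in D0_Positive (22.7% to 28.0%).

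The members without a test had few reads. Ets2, a target of MAP kinase signalling, was methylated in 1 of 15 and 1 of 3 reads in D1_Positive and in 8 of 36 and 5 of 33 reads in D0_Positive. Etv1 and Etv5, close relatives of the PEA3 subfamily that act downstream of fibroblast growth factors, were sparsely read too. Etv1 had 12 of 22 and 2 of 6 methylated reads in D1_Positive, and 8 of 24 and 2 of 3 in D0_Positive. Etv5 was methylated in 52.2% and 35.6% of reads (24 of 46 and 21 of 59) in D1_Positive and in 31.0% and 16.7% (13 of 42 and 5 of 30) in D0_Positive. Both D1_Positive libraries of Etv5 were above both D0_Positive libraries, without a test, an order that 22.2% of the tested loci had. In D1_Positive replicate 1, 2 patches held 17 of the 24 methylated reads of Etv5 (70.8%), and its other reads were methylated in 7 of 28 (25%). Gabpa, the DNA-binding subunit of a complex with Gabpb1 or Gabpb2, had 4 of 9 and 12 of 28 methylated reads in D1_Positive, and 10 of 12 and 8 of 18 in D0_Positive. At these depths no difference at Ets2, Etv1 or Gabpa was detectable.

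**Figure D2:**
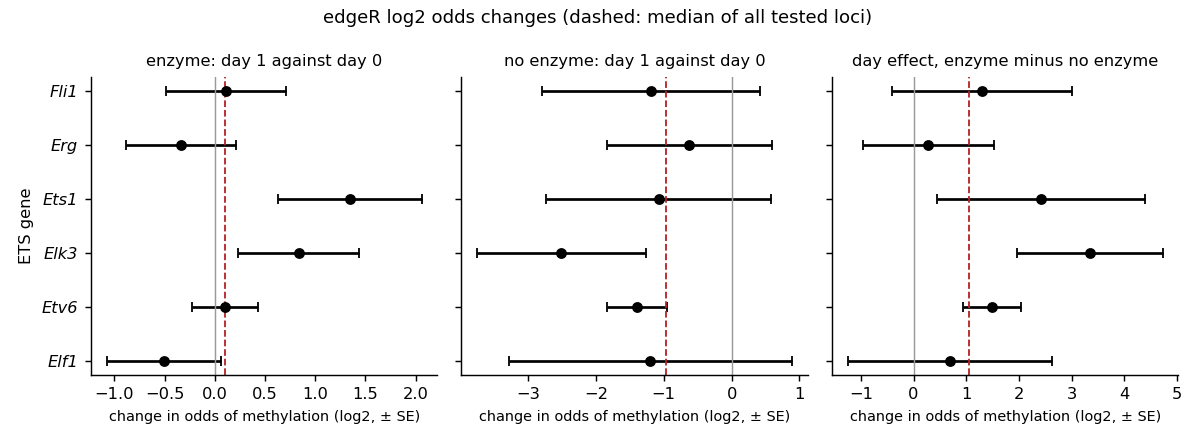
Log2 odds changes of the 6 tested members (points) with their standard errors (bars) from edgeR, for day 1 against day 0 with the enzyme, without it, and the difference of the 2 day effects, with the median of all 7993 loci as a line in each panel. With the enzyme the members spread from -0.51 in Elf1 to 1.35 in Ets1 around a median of 0.099 for all loci, and without it every member lies below 0.

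Pooled over the 10 loci, the level with the enzyme was 1.43 percentage points higher on day 1 (28.6% ± 2.1 in D1_Positive, 27.2% ± 1.1 in D0_Positive; SD, n = 2 each), which is less than the spread between the D1_Positive libraries. In gene bodies, more than 1 kb inside both ends, it was 27.8% ± 1.9 in D1_Positive and 26.9% ± 1.5 in D0_Positive (SD, n = 2 each). Because few sites were read, the libraries seldom measured the same places. Of 1653 sites of the members with reads in any library with the enzyme, 25 (1.51%) were read on both days and 0 in all 4 libraries. Of 379 blocks of 1 kb, 64 in 7 genes had reads on both days. Within those 64 blocks the level was 23.4% ± 2.8 in D1_Positive (793 reads) and 26.2% ± 2.0 in D0_Positive (847 reads; SD, n = 2 each), so the sign of the pooled difference turned. Etv6 held 37 of the shared blocks and was methylated in 23.3% of reads there in D1_Positive and 26.1% in D0_Positive. Elk3 held 10 shared blocks, with 24.7% in D1_Positive and 17.6% in D0_Positive. Ets1 held 2 shared blocks, with 4 of 9 reads methylated in D1_Positive and 20.8% of 24 reads in D0_Positive, so nearly all of its D1_Positive reads lay at places not read on day 0.

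The gene ends, 1 kb on either side of each annotated end, gave the widest gap between the days. Pooled over the members, 18 of 30 reads (60.0%) and 37 of 77 reads (48.1%) were methylated in the D1_Positive libraries, against 6 of 21 (28.6%) and 25 of 72 (34.7%) in the D0_Positive libraries. The means were 54.0% ± 8.4 in D1_Positive and 31.6% ± 4.3 in D0_Positive (SD, n = 2 each), and the libraries did not overlap. Ends of 21877 other protein-coding genes were at 35.7% ± 0.32 in D1_Positive and 37.4% ± 0.34 in D0_Positive, and ends of other ETS genes at 34.4% ± 1.5 in D1_Positive (9 and 11 genes with reads) and 32.9% ± 0.65 in D0_Positive (8 and 6 genes with reads; SD, n = 2 each). Without the enzyme the members' ends were at 2.47% ± 1.6 in D1_Negative and 3.93% ± 0.59 in D0_Negative (SD, n = 2 each).

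The reads behind that gap came from partly different genes and from different places. Reads at ends came from 6 members in D1_Positive and 7 in D0_Positive, and 5 (Ets1, Elk3, Elf1, Etv5 and Gabpa) had them in both groups. In each of these 5 the pooled end level was higher in D1_Positive, on few reads. Elf1 was at 75.0% in D1_Positive and 72.2% in D0_Positive, and Etv5 at 100% and 33.3%. Whether genes or places account for the gap was not tested. No one site at an end was read on both days, 0 of 65, and the nearest sites of the 2 groups were 192 bp apart. In D1_Positive, annotated starts had 15 of 16 methylated reads, from Elf1 and Etv5, and 3' ends had 37 of 82. In D0_Positive, starts had 24 of 57 methylated reads in 4 genes and 3' ends 0 of 6. The proportion of start and 3' end reads therefore differed between the groups as well.

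At Etv5, 4 sites between -320 and -290 bp from the start (chr16:22439860-22439890) were methylated in 12 of 12 reads of D1_Positive replicate 1, and 3 sites from 605 to 619 bp inside the gene in 3 of 9 reads of D0_Positive replicate 1. At Elf1, the site at -44 bp from the annotated gene start was methylated in 3 of 4 reads of D1_Positive replicate 2, while patches from 148 to 174 bp and from 367 to 392 bp inside the gene had 5 of 9 and 8 of 9 in D0_Positive replicate 2. Reads at the start of Elf1 were thus mostly methylated on both days, at different positions. At Elk3, the 3' end had 4 of 9 and 15 of 24 methylated reads in 2 patches inside the gene in D1_Positive replicate 2, and 0 of 6 beyond the gene in D0_Positive replicate 2. At Gabpa, 6 of 9 reads were methylated beyond the 3' end in D1_Positive replicate 2 and 8 of 18 inside the start in D0_Positive replicate 2. At Ets1, for which the annotation used gave no strand, the ends had 3 of 9 methylated reads in D1_Positive and 2 of 15 in D0_Positive. Etv6 had end reads in D1_Positive only (12 of 40), Fli1 (5 of 15) and Ets2 (0 of 12) in D0_Positive only, and Erg and Etv1 had none in either group.

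**Figure D3:**
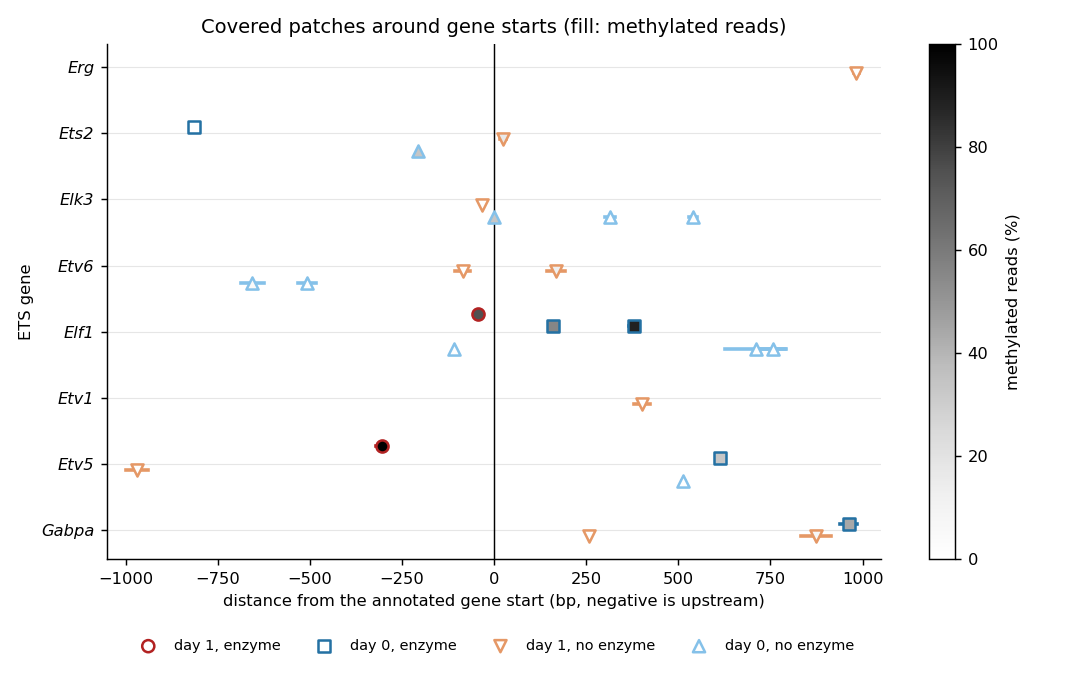
Patches of covered sites within 1 kb of the annotated starts of the 8 members with a known strand, by distance from the start in bp (negative is upstream), with 1 row of symbols per group under each gene and the fill giving the methylated reads (%). With the enzyme the groups were read at different distances, and the fully methylated day 1 patch of Etv5 lies upstream of the start.

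Farther than 1 kb from the ends, the level of the pooled members with the enzyme was 32.5% ± 4.7 in D1_Positive and 29.3% ± 12.2 in D0_Positive between 1 and 5 kb from the nearer end, and 23.8% ± 0.75 in D1_Positive and 26.2% ± 0.61 in D0_Positive between 5 and 20 kb. It was 29.4% ± 3.8 in D1_Positive and 27.4% ± 1.1 in D0_Positive between 20 and 50 kb, and 28.1% ± 3.2 in D1_Positive and 26.0% ± 0.014 in D0_Positive from 50 to 200 kb (SD, n = 2 each throughout). The D1_Positive libraries overlapped those of D0_Positive in these bins except between 5 and 20 kb, where D1_Positive (23.3% and 24.3%) lay below D0_Positive (25.7% and 26.6%) and below its own libraries in every other bin.

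**Figure D4:**
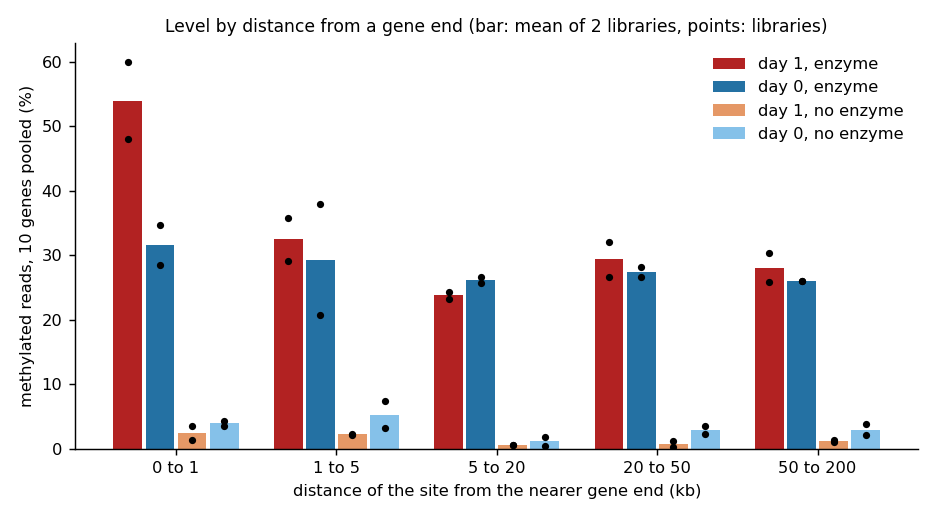
GpC methylation (%) of the pooled members by distance in kb from the nearer gene end, with bars at the mean of each of the 4 groups and 1 point per library. The bin within 1 kb of an end is at 54.0% in D1_Positive and 31.6% in D0_Positive, and the bins farther in lie between 23.8% and 32.5% with the enzyme.

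Along the genes the reads fell into short patches, each a run of sites of 1 library no more than 150 bp apart. In 86.0% of the patches of D1_Positive and 88.9% of those of D0_Positive no site had more than 3 reads. With the enzyme 212 patches of 2 or more sites were read in D1_Positive and 167 in D0_Positive. Their median level was 25% in both groups, and 34 of them in D1_Positive (16.0%) and 24 in D0_Positive (14.4%) had no methylated read. Without the enzyme 89.1% of 239 patches in D1_Negative and 79.7% of 138 in D0_Negative had none. Patches with over 2 methylated reads in 3 numbered 10 in D1_Positive (4.72%) and 6 in D0_Positive (3.59%).

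In some libraries of Ets1, Fli1, Etv5 and Gabpa such patches held most of the methylated reads, while Erg, Ets2 and Etv1 had no such patch. In Ets1, 23 of 30 reads were methylated at chr9:32695814-32695889 and 11 of 15 at chr9:32736236-32736283, both in D1_Positive replicate 2 and 59.6 and 100 kb from the lower end of the gene. These 2 patches held 34 of the 52 methylated reads (65.4%) of that library, and its other reads at Ets1 were methylated in 18 of 81 (22.2%). Just before the patch at 100 kb, D0_Positive replicate 2 had 4 of 15 (chr9:32735770-32735850). In Fli1, both D1_Positive libraries had highly methylated patches close to each other in the gene body: 6 of 6 reads at chr9:32518049-32518056 and 9 of 15 at chr9:32518330-32518364 in replicate 1, and 11 of 12 at chr9:32518507-32518557 in replicate 2. The nearest patches of D0_Positive, at chr9:32516040-32516100 and chr9:32519256-32519292 in replicate 2, had 0 of 6 and 0 of 9, but the stretch itself was not read on day 0. Where both days were read, at position 32519281, D1_Positive replicate 1 also had 0 of 3, and it had 2 of 9 at chr9:32519527-32519565. In D1_Positive replicate 2, 2 patches held 20 of the 24 methylated reads of Fli1 (83.3%), and its other reads were methylated in 4 of 27 (14.8%). The share was 20% in D1_Positive replicate 1 and 25.7% in D0_Positive replicate 2, with the other reads at 27.6% and 31.3%. Leaving out the highest patches lowers a level by construction. In the 20 kb bin that holds the stretch not read on day 0, Fli1 was methylated in 60.8% of 51 reads in D1_Positive and 25.9% of 27 reads in D0_Positive. The libraries overlapped there, with 51.3% and 91.7% in D1_Positive and 58.3% and 0% in D0_Positive. In the bin from 40 to 60 kb the order was the opposite, with 18.8% of 48 reads in D1_Positive and 41.4% of 87 reads in D0_Positive. All D1_Positive reads of that bin came from replicate 1. High patches of Fli1 on day 0 lay elsewhere, with 11 of 12 reads at chr9:32451417-32451437 in D0_Positive replicate 2.

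Elsewhere, Etv6 had 12 of 15 at chr6:134208273-134208322 in D1_Positive replicate 2 and 7 of 9 at chr6:134163959-134163983 in D0_Positive replicate 1. Elf1 had 9 of 9 reads at chr14:79482640-79482706, 1.5 kb inside the gene, in D1_Positive replicate 1. Gabpa had 10 of 12 at chr16:84849117-84849147 in D0_Positive replicate 1, which were all of its methylated reads there. These patches were picked after their values were seen and carry no test. Etv6 alone was dense enough for a profile along the gene. In 12 bins of 20 kb its level ran from 19.7% to 37.2% in D1_Positive and from 10.3% to 37.3% in D0_Positive, and D1_Positive was the higher in 8 bins. Some bins were still thin. The bin at 10.3% held 39 reads of D0_Positive (0% and 11.1% in its libraries), and D1_Positive had 30 reads between 120 and 140 kb.

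**Figure D5:**
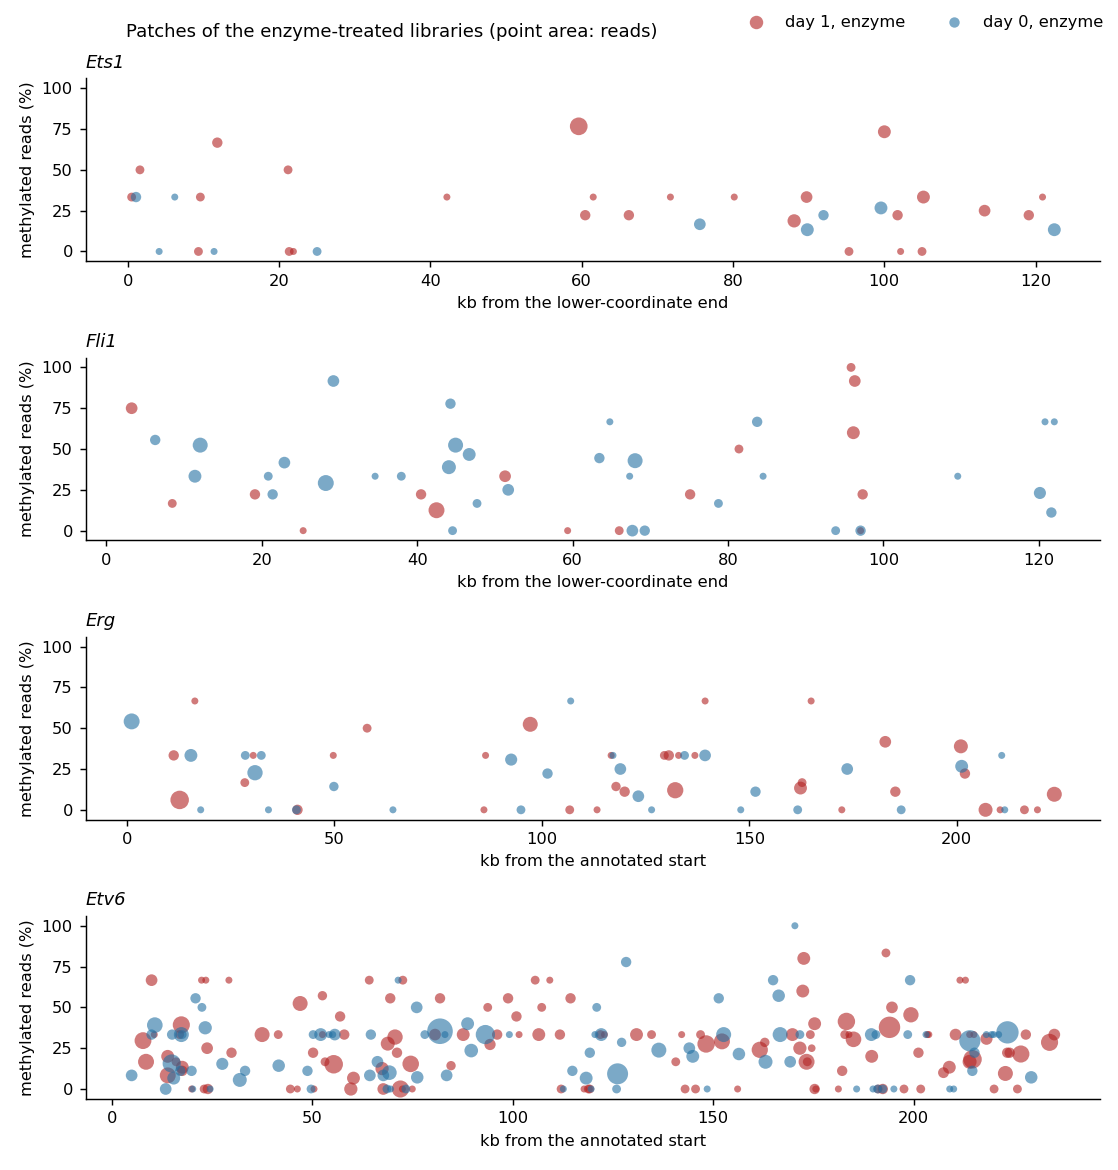
Methylated reads (%) of each patch with the enzyme along Ets1, Fli1, Erg and Etv6, by distance in kb from the start (from the lower coordinate for Ets1 and Fli1), with D1_Positive in red, D0_Positive in blue and point area by reads. Most patches of Erg and Etv6 lie under 50% on both days, and the patches of Ets1 at 59.6 and 100 kb and those of Fli1 near 96 kb stand above them on day 1.

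Without the enzyme, where methylated reads show the background of the readout, the pooled level of the members was lower on day 1, though no single member passed the test and Ets2 and Gabpa had the opposite order. Pooled over the 10 loci, 35 of 3479 reads were methylated in D1_Negative (1.00% ± 0.087) and 52 of 1955 in D0_Negative (2.72% ± 0.46; SD, n = 2 each). All 6 tested members had negative log2 odds changes, of which Erg turned to 0.35 when each library was centred, and over all loci the median was -0.96. Centred, Etv6 was at -0.37. Without D0_Negative replicate 1, Fli1 (2.10), Ets1 (2.13) and Elf1 (1.95) turned positive. edgeR's quasi-likelihood test with Benjamini-Hochberg adjustment called 0 of the 6, against 3.18% of all loci lower and 0.0125% higher on day 1. Of the members, 2 had an unadjusted p under 0.05 (Etv6 and Elk3), as had 1172 of 7993 loci. Both were called by limma, which also called more of all loci lower than edgeR did. The limma counts for the members and for all loci are given together in the last section, and nothing particular to the members is read from them. Etv6 had 9 of 801 and 11 of 738 methylated reads (1.1% and 1.5%) in D1_Negative and 12 of 508 and 19 of 413 (2.4% and 4.6%) in D0_Negative. Its log2 odds change was -1.39 (SE 0.44, adjusted p = 0.0511, edgeR), and over the alternative settings its adjusted p ran from 0.0118 to 0.867. Elk3 had 0 of 76 and 2 of 254 methylated reads in D1_Negative and 3 of 70 and 3 of 91 in D0_Negative, with a log2 odds change of -2.51 (SE 1.24, adjusted p = 0.322, edgeR). Etv6 and Elk3 were also the 2 of 6 members whose D1_Negative libraries lay below both D0_Negative libraries, as in 28.8% of all loci, and 0 of 6 had the opposite order, as in 5.69%.

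The remaining members had few methylated reads without the enzyme. Fli1 had 2 of 206 and 0 of 117 in D1_Negative and 2 of 84 and 0 of 49 in D0_Negative. Erg had 2 of 162 and 2 of 328 in D1_Negative and 1 of 168 and 2 of 70 in D0_Negative. Ets1 had 0 of 165 and 1 of 86 in D1_Negative and 2 of 123 and 0 of 66 in D0_Negative, and Elf1 had 1 of 169 and 0 of 104 in D1_Negative and 1 of 42 and 0 of 65 in D0_Negative. Each had at most 4 methylated reads in a group, so day differences were not detectable at this depth. Ets2 had 1 of 10 and 2 of 36 in D1_Negative and 2 of 72 and 0 of 6 in D0_Negative. Etv1 had 0 of 24 and 0 of 15 in D1_Negative and 3 of 15 and 0 of 27 in D0_Negative. Etv5 had 0 of 27 and 1 of 104 in D1_Negative and 2 of 74 in the 1 D0_Negative library with reads. Gabpa had 1 of 57 in the 1 D1_Negative library with reads and 0 of 12 in the 1 D0_Negative library with reads.

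The day effect with the enzyme minus that without it was positive in all 6 tested members, as was the median of all loci (1.04 on the log2 odds scale). edgeR called 0 of the 6, against 2.09% of all loci higher and 0% lower. Of the members, 2 (Elk3 and Etv6) had an unadjusted p under 0.05, as had 1139 of 7993 loci, and limma called 0. The largest was Elk3 at 3.34 (SE 1.38, adjusted p = 0.208, edgeR), then Ets1 at 2.42 (adjusted p = 0.613) and Etv6 at 1.49 (SE 0.55, adjusted p = 0.137). Fli1 (1.30), Elf1 (0.69) and Erg (0.28) followed. Relative to the median of all loci, Elf1 and Erg lay below and turned negative when each library was centred. Without D0_Negative replicate 1, Fli1 (-1.99), Ets1 (-0.78) and Elf1 (-2.46) turned negative, and Erg did without D0_Negative replicate 2 (-0.81) or D1_Negative replicate 2 (-0.30).

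The rest of the family and its partners gave few tested loci. Of 16 other ETS genes 5 were tested (Elf2, Spdef, Spi1, Ehf and Elf5), and of 8 partners and regulators 4 (Runx1, Srf, Gabpb1 and Cbfb). By edgeR, with and without the enzyme, 0 of these 9 were called between the days and 0 had an unadjusted p under 0.05. With the enzyme the median log2 odds change between the days was -0.038 over the other ETS genes, -0.50 over the partners and 0.099 over all loci. Elf2, closely related to Elf1, had the largest positive value at 0.34 (SE 0.58), and Gabpb1, the partner subunit of Gabpa, the largest negative at -0.91 (SE 0.87). The enzyme effect passed in all 9 on day 1, where 99.6% of all loci passed, and in 8 on day 0, where 96.5% did. The exception was Elf5 (adjusted p = 0.117, edgeR), with 12 and 21 reads in the D0_Positive libraries and 18 and 12 in the D0_Negative libraries. In pooled level the other ETS loci were at 29.6% ± 3.9 in D1_Positive and 28.7% ± 1.8 in D0_Positive (SD, n = 2 each), close to the members.

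Loci of cell type marker genes, read the same way, gave 32.7% ± 1.6 in D1_Positive and 32.2% ± 15.3 in D0_Positive over 6 fibroblast markers (6 and 5 with reads in the D1_Positive libraries, 6 and 4 in the D0_Positive libraries), 25.3% ± 2.7 in D1_Positive and 25.6% ± 0.90 in D0_Positive over 4 endothelial markers (all read except 1 in D0_Positive replicate 2), and 20.3% ± 0.71 in D1_Positive and 20.3% ± 5.1 in D0_Positive over 2 blood markers (SD, n = 2 each). Among 1202 other protein-coding loci with at least 100 reads in every library, those whose levels were nearest to the pooled members, by the sum of absolute differences over the 8 libraries, included Sox5 (2.47 percentage points) and Hhat (4.29 percentage points). Among the members themselves the sum was 10.2 for Etv6 and between 23.6 and 45.6 for the other 5 tested, with Fli1 at the upper end. Etv6 supplies much of the pool, so its small sum is partly by construction. The other 5 had fewer reads than Etv6 in every library, and counting error widens such sums. The sums therefore do not rank the members.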

How the data were processed

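NOMe-seq libraries of genomic DNA were analysed on mm10, per the submitters' processing notes. The authors deposited, for each cytosine and library, a methylated fraction rounded to 2 decimals and a read count, without a header. Each fraction times its count was whole within rounding (0.005 in the fraction), and the product was taken as methylated reads. Neither aligner, caller nor duplicate handling is given in the sources used here. All 66210 covered sites in RefSeq promoter windows were GpC followed by A, C or T.

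Sites of at most 100 reads were pooled per gene, with 1 kb on either side, and gene ends were kept apart from bodies. Methylated and unmethylated counts of loci with 10 or more reads in every library were fitted with edgeR 4.0.16 (R 4.3.3; quasi-likelihood, a mean per group, all 8 libraries), checked on simulated data, with Benjamini-Hochberg adjustment over 7993 loci and a threshold of 0.05. Of 17 alternatives, 1 was limma 3.58.1 on log2((methylated + 1)/(unmethylated + 1)), and others changed read minimums, scaling, libraries and regions. Pooled levels have no test. Python 3.11.15 with pandas 2.3.3 and scipy 1.17.1 did the rest. Gene lists and members were chosen with earlier results of these data known: every member is named, along with list genes past a threshold or with the largest change either way, the 3 loci most alike (of which 1 is not reported here), and sites in promoter windows or at ends read on both days.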

Additional observations from a re-analysis of the deposited data

How the results depend on the processing

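Shallow coverage (mostly 3 reads per site) and 2 libraries per group limit every value. Between the days with the enzyme, 0 members were called under every alternative run, with 6 or 7 tested except at sites of at least 4 reads, where 1 was. Without the enzyme (0 called), limma called 2, and it called 992 of all 7993 loci lower. A minimum of 20 reads, keeping deep sites and gene bodies only each called 1 member. These 3 counts are not set against all loci here, and nothing particular to the members is read from them. Leaving out 1 library changed whether Etv6 was called without the enzyme and in the difference of day effects, but such fits leave 1 library in a group. Those calls are not set against all loci either, and nothing is read from them. Replicate numbers correlated from -0.014 to 0.019 in deviations. At this depth counting error could hide a pairing of the libraries, so whether replicate numbers pair them was not settled. A replicate block left 0 members called between the days and 6 called by the enzyme on each day, with 192 loci in place of 254 lower on day 1 without the enzyme, 99 in place of 167 higher in the difference, and Etv6 at an adjusted p of 0.0823 (edgeR) without the enzyme. Sites of at least 4 reads left 1 member testable and 1 called by the enzyme on each day. Centring each library removes the enzyme effect by construction (0 called on each day; Elk3 -0.93 and Etv6 -0.35 on day 0), and it turned Erg to 0.35 without the enzyme, and Erg to -0.78 and Elf1 to -0.26 in the difference. Leaving out 1 library, the log2 odds change with the enzyme ran from 0.44 to 1.20 in Elk3, -0.78 to -0.30 in Elf1, -0.29 to 0.61 in Fli1 and from -0.020 to 0.22 in Etv6, the last 2 negative without D1_Positive replicate 2. Without the enzyme it ran from -3.44 to 2.10 in Fli1, -1.76 to 0.47 in Erg, -3.40 to 2.13 in Ets1 and -2.73 to 1.95 in Elf1. The difference of day effects ran from -1.99 to 3.55 in Fli1, -0.81 to 1.42 in Erg, -0.78 to 4.74 in Ets1 and -2.46 to 2.23 in Elf1. The pooled day difference with the enzyme (1.43 points) was -2.82 in blocks read on both days, 22.4 at gene ends and from -0.021 to 2.88 leaving out 1 library. Without the enzyme (-1.72 points) it was -0.37 at sites of at least 4 reads, -1.26 with loci weighted equally, -1.11 without Etv6, -2.79 with patches weighted equally (added after the data were seen) and from -2.05 to -1.39 leaving out 1 library. Over all loci, 254 calls lower on day 1 without the enzyme became 992 in limma and 5 with sites of at least 4 reads or with centring, and 8 with the 4 libraries compared alone; 167 higher in the difference became 1, 2 and 0, and 8 without D1_Positive replicate 2. At sites of at least 4 reads only 595 loci were tested, against 7993 in the main setting, so the counts above at that setting are not comparable with the main ones. Of those 595 loci the enzyme gave 594 calls on day 1 (main setting 7963 of 7993) and 573 on day 0 (main setting 7712 of 7993). The other causes were not tested.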
